A study of Mus musculus with 12 samples.

Results

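Cd34, Adgrg1, Egfl7, Angpt1, Msi2, Hmga2, Sox4 and Mecom, 8 genes used as markers of blood stem and progenitor cells, held 19 of the 16028 regions of open chromatin found in the series. The 19 were the regions whose overlapping or nearest protein-coding gene within 50000 bases was one of the 8. Every gene had at least 1 region, from 1 each at Egfl7, Msi2 and Mecom to 5 at Cd34. All 8 had a called region while the cells were kept in estradiol (E2), and at 120 h without E2 only Cd34 had one, a peak of 238 bases. Over all 10499 genes with an assigned region, 88.8% had a called region in continuous E2 and 64.6% at 120 h. Of the 16 member regions called in continuous E2, 15 were not called at 120 h, against 50.6% of all such regions. None of the 19 was called at 120 h and not in continuous E2, as 9.15% of all regions were.

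The data were ATAC-seq, which cuts and tags accessible DNA with the Tn5 transposase, from mouse ER-Hoxa9-Lys-GFP cells of strain C57BL/6. These are myeloid progenitors held immature by Hoxa9 fused to a hormone-binding domain of the estrogen receptor, which needs E2 to work, and they carry a GFP reporter at the lysozyme gene. All groups carried the same transgenes and grew in serum with SCF-conditioned medium. The groups, each of 2 libraries, were continuous E2, 120 h without E2, and 24, 40, 56 or 72 h without E2 followed by 96, 80, 64 or 48 h with E2 back, so that hours without E2 and hours of add-back cannot be told apart. The lists are ordered below by hours without E2, and "after 24 h" names the list of 24 h without and 96 h with E2. A later list is one with more hours without E2, not a later sampling of the same cells. The peak list deposited for each group stood for both its libraries and held positions only. There were thus no replicate values, the read depth was unknown, and no difference between conditions could be tested. As deposited, the lists held 16884, 15003, 11165, 9823, 10257 and 8358 rows in the order continuous E2, 24, 40, 56, 72 and 120 h. Duplicate rows and intervals over 10000 bases were dropped and overlapping rows merged. The lists then held 13165, 11465, 9940, 8989, 9581 and 7987 peaks in the same order. Their lengths differ, so counts of the members are given beside the same share over all regions.

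The 8 genes fall into surface proteins, secreted factors, RNA and chromatin binding proteins and transcription factors. Hoxa9 binds with Meis and Pbx partners at enhancers of progenitor genes in immature myeloid cells, and such genes are switched off as the cells mature into granulocytes or macrophages. CD34 is the classic surface antigen of these cells, while Hmga2, Msi2, Sox4 and the Mecom product EVI1 favour self-renewal and are recurrent in myeloid leukemia. Cd34, Egfl7 and Angpt1 are also known from endothelium. Of 5 endothelial marker genes, only Cdh5 had a region, called in continuous E2 alone, and Pecam1, Kdr, Tie1 and Sox17 had none in any list. Of 10 myeloid marker genes 9 had a region. These genes had 8 regions called in continuous E2, of which 7 were not called at 120 h, against 50.6% of all such regions. The 7 lay at Cebpa, Spi1, Csf1r, Ctsg, Prtn3, Mpo and Cebpe, and Spi1 also had 1 region called at both end points. Of the 12 myeloid regions, 3 were called at 120 h and not in continuous E2, against 9.15% of all regions. Csf3r had 2 of these and Cebpa 1. The erythroid and megakaryocytic, lymphoid, and mast and basophil marker lists each had a single region, called in continuous E2 and not at 120 h, and of 4 fibroblast genes none had a region. The part of such cells in the members' result was not tested.

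At 5 of the genes a called region lay over a gene start listed by RefSeq, and none of these 5 regions was called at 120 h. The 250 bases before each of those starts are shown because they are the promoter sequence inside or beside these 5 regions. They are given 5′ to 3′ in the direction of transcription, from the RefSeq table on GRCm38, and capitals mark matches to the 8 motifs described next.
Cd34 (chr1:194938571-194938820, plus strand): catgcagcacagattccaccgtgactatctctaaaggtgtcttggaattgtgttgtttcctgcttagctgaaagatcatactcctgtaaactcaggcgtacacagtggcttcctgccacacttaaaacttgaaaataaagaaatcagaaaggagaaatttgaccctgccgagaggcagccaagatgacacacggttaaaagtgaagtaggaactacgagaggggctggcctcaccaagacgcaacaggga
Sox4 (chr13:28953700-28953949, minus strand): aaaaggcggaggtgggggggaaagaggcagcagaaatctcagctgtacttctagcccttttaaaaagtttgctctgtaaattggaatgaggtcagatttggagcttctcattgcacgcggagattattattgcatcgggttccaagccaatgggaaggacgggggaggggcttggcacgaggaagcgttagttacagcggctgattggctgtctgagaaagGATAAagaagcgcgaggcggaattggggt
Hmga2 (chr10:120476470-120476719, minus strand): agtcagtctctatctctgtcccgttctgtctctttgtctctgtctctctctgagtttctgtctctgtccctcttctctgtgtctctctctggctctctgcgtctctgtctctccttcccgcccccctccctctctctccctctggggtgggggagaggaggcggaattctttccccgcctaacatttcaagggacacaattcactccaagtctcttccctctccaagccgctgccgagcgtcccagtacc
Msi2, the start listed farthest upstream of 3 (chr11:88718278-88718527, minus strand): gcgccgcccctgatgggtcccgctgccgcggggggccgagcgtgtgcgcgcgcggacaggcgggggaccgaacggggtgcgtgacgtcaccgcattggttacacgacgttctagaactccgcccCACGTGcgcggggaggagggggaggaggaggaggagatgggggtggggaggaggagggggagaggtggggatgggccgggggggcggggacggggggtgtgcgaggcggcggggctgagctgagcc
Egfl7, the start listed farthest downstream of 3 (chr2:26586386-26586635, plus strand): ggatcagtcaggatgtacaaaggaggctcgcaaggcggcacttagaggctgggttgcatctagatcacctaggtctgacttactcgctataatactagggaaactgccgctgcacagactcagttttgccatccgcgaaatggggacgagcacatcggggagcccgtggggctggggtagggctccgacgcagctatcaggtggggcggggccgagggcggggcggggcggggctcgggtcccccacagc

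The 5 promoters differed in composition. The Cd34 promoter was 46.4% G and C with 6 CpG pairs. Over all 32851 listed promoters the median was 52.4% and 6 pairs, and the lower quartile 45.2% and 2 pairs, so the Cd34 promoter lay near the lower quartile in G and C and at the median in CpG pairs. The Msi2 promoter was 75.6% G and C with 29 CpG pairs, Egfl7 63.2% with 17, Hmga2 56.4% with 8 and Sox4 50.8% with 11. The upper quartile over all promoters was 61.2% and 16 pairs.

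Motifs were searched on both strands in the 250 bases before and 50 after each start. GATAA, the core of GATA sites, was found at Sox4 at -29 to -25 bases from the start and at Cd34 at 3 to 7 bases after it, and 25.4% of all promoters hold it. CACGTG, the E-box of MYC-type factors, was found at Msi2 at -126 to -121 and at 5 to 10 bases, against 7.15% of all promoters with a match. Neither Hmga2 nor this Egfl7 start had a match to any of the 8. The other motifs were TGTGGT for RUNX (16.8% of promoters), TTGCNNAA for C/EBP (10.8%), GGAAGT for ETS (23.8%), TGACAG for MEIS and PREP (19.2%), TGATTNAT for HOX with PBX (3.22%) and TGANTCA for AP-1 (7.81%), and none of these letters stood in the 5 windows. Such matches are letters in a window and not sites of binding.

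**Figure D1:**
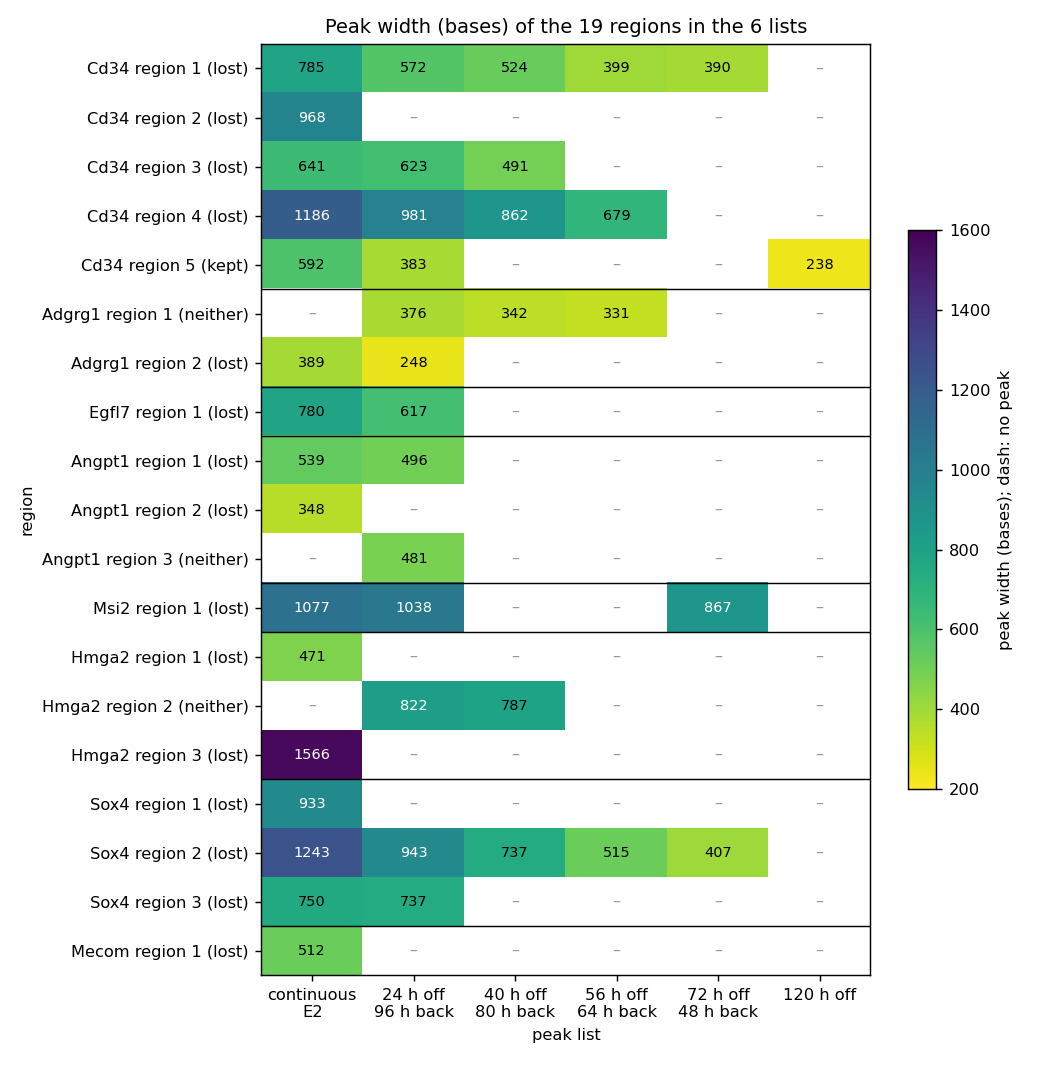
Each row is one of the 19 regions, numbered along the chromosome within a gene, and each column one of the 6 peak lists. Numbers and colours give the width of the peak in bases, and a dash means that no peak was called. Colour thins out to the right, and at 120 h a single cell is filled, the 238 bases of the fifth Cd34 region.

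Cd34 had the most regions, 5, and the 4 not called at 120 h were last called in 4 different lists. Only 0.819% of the 10499 genes with an assigned region had 4 or more regions called in continuous E2 and missing at 120 h, termed lost from here on. The region over the Cd34 start (chr1:194938580-194939547) was 968 bases wide in continuous E2 and was called in no other list, not even after 24 h of withdrawal and 96 h of E2. Over all regions, 1966 of 16028, or 12.3%, were called in continuous E2 alone.

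The region inside the gene, 4.85 kb after the start (chr1:194943340-194943999), was 641 bases wide in continuous E2, 623 after 24 h and 491 after 40 h, and was not called later. The region 37.9 kb after the start and 14791 bases past the gene's end (chr1:194976083-194977398) measured 1186, 981, 862 and 679 bases in the lists from continuous E2 to 56 h, and was missing at 72 and 120 h. It lies at the start of Gm16897, a long noncoding RNA gene, and among genes of all types it was assigned to Gm16897. The 4 lost regions counted at Cd34 include it. The region upstream, centred at -10.8 kb (chr1:194927677-194928461), was called in more lists than the other Cd34 regions. Its widths were 785, 572, 524, 399 and 390 bases in the lists from continuous E2 to 72 h. At Cd34, then, the peak at the promoter was called in no list but that of continuous E2, while each of the 4 other regions was called in at least 1 further list.

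The fifth Cd34 region, 33863 bases past the gene's end (chr1:194995155-194995746), was the only one of the 19 called at both end points. It was 592 bases wide in continuous E2, 383 after 24 h, absent at 40, 56 and 72 h, and 238 bases wide at 120 h, narrower than every other member peak. Only 63 of all regions, or 0.393%, had this order of calls. It lies inside the noncoding gene Gm32250, and the next protein-coding gene, Cd46, was 43225 bases away, so its link to Cd34 is by distance only. Its call at both end points ended under 50% reciprocal overlap, with lists of equal length and without peaks under 300 bases. It was no longer assigned to Cd34 within 20000 bases, among genes of all types or by the nearest gene start.

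**Figure D2:**
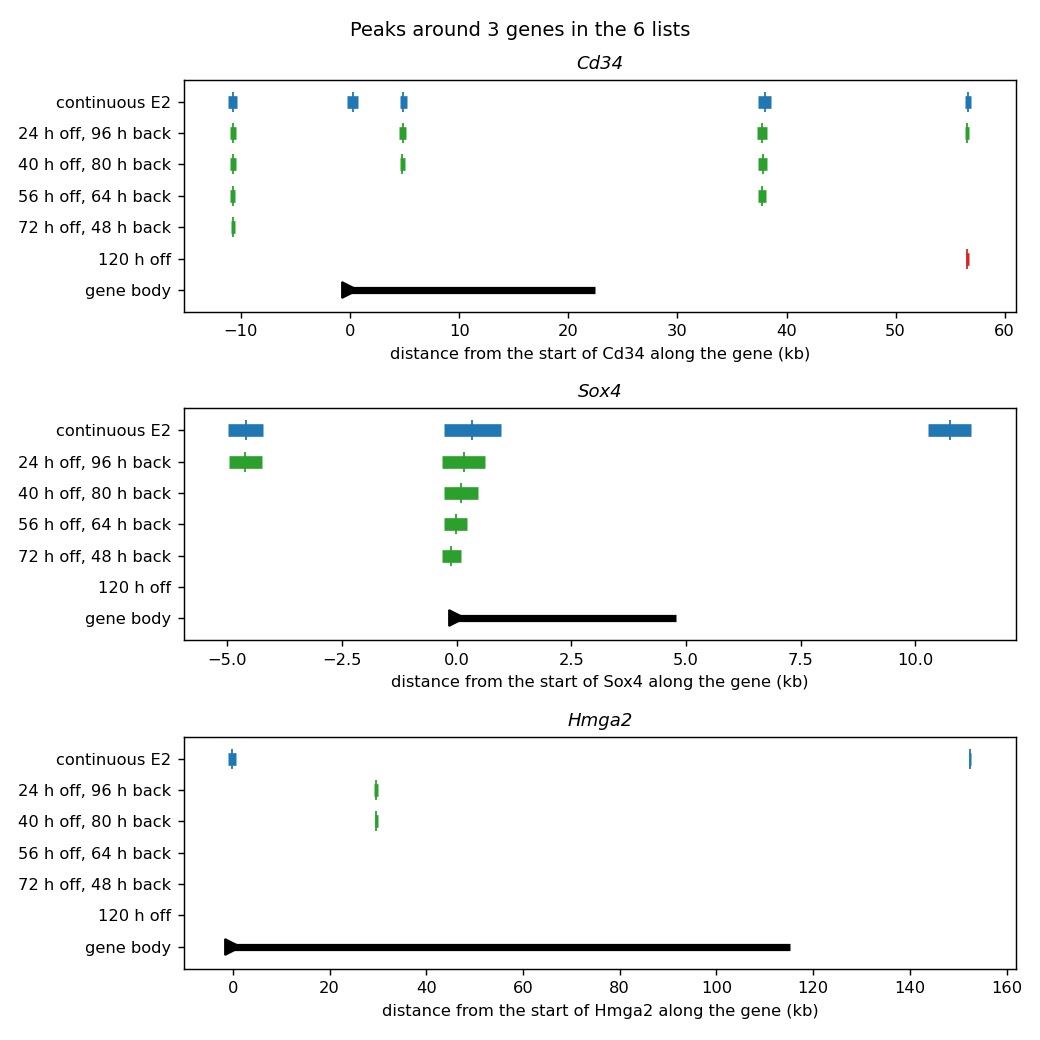
Peaks around Cd34, Sox4 and Hmga2 are drawn as bars against the distance in kb from the gene's start along the gene, one row per list, blue for continuous E2, green for withdrawal with add-back and red for 120 h without E2. The black bar is the gene body, its arrow marks the start, and the thin vertical tick marks the centre of a peak, so that narrow peaks can be seen. Over Sox4 the bars shorten from the right, from 1243 bases in continuous E2 to 407 after 72 h.

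Adgrg1, which encodes the adhesion receptor GPR56 of stem cells, had 2 regions that behaved differently. The one inside the gene (chr8:94978522-94978910), 3.96 kb past the gene's upstream end and 1413 bases from the nearest start listed by RefSeq, was 389 bases wide in continuous E2 and 248 after 24 h, and was called in no later list. The one at -9.72 kb from the upstream end (chr8:94964852-94965227), 11882 bases from the nearest listed start, was absent at both end points and was called after 24, 40 and 56 h with widths of 376, 342 and 331 bases, as only 48 regions of the series were (0.299%). It lies in the noncoding gene Gm30968 and among genes of all types was assigned to Gm30968. The first was thus called in no list past that of 24 h, while the second was called in 3 of the 4 add-back lists and at neither end point.

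Among the secreted factors, Egfl7, an EGF-like protein that hosts miR-126 in an intron, had 1 region (chr2:26586459-26587238). It was 780 bases wide in continuous E2 and 617 after 24 h and was not called in the other 4 lists. It covered the third listed start of the gene and ended 4119 bases before the hairpin of Mir126a. That microRNA, which restrains the cycling of stem cells, is shown because it is transcribed with Egfl7. Its mature strand follows with the seed, bases 2 to 8, in capitals.
mmu-miR-126a-3p (chr2:26591402-26591423, plus strand): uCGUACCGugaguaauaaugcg

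Angpt1, the ligand of the receptor Tie2, had 3 regions, all inside its gene body, and none was called in the lists of 40 h or more without E2. The first (chr15:42438070-42438625) was 539 bases wide in continuous E2 and 496 after 24 h. The second (chr15:42479463-42479810) was called in continuous E2 alone with 348 bases, the narrowest member peak of that list. The third (chr15:42520866-42521346) was called after 24 h alone, with 481 bases, a pattern shared by 364 regions or 2.27%. No region lay over either end of the Angpt1 gene.

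Msi2, an RNA-binding protein that keeps stem cells from differentiating, had 1 region, over its 3 listed starts (chr11:88717901-88719011). A listed start of another gene, C030037D09Rik, also lies within 1000 bases of this region. The peak was 1077 bases wide in continuous E2 and 1038 after 24 h, missing at 40 and 56 h, 867 bases wide at 72 h and missing at 120 h. Msi2 was the only member with a lost region missing from 1 list and called in a later one, and 113 regions of the series had its pattern (0.705%). The other 14 of the 15 lost regions were called in no list later than the first that lacked them, against 84.2% of all 6663 lost regions. No other part of the gene, which spans 378925 bases, held a region in any list.

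Hmga2, a chromatin protein with AT-hooks that is high in fetal stem cells, had 3 regions. The region over its start (chr10:120475798-120477363) was the widest of all member peaks at 1566 bases, and was called in continuous E2 alone. A region of 471 bases 37011 bases past the gene's end (chr10:120323787-120324257) was also called in that list alone. A region inside the gene (chr10:120446380-120447201), 29.7 kb after the start, was called only after 24 and 40 h, with 822 and 787 bases, a pattern of 79 regions (0.493%). The add-back lists of 24 and 40 h therefore held a region within the gene but none at its start.

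Sox4, a SoxC transcription factor that can drive myeloid leukemia in mice, had 3 regions. The one over its start (chr13:28952732-28954013) was called in every list but that of 120 h, with widths of 1243, 943, 737, 515 and 407 bases. Its upstream edge stood at -275 bases from the start in continuous E2 and at -314 after 72 h, while its downstream edge stood at 967, 628, 459, 237 and 92 bases in the same order of lists. The narrowing thus came from the side of the gene body, by 875 bases in all. For comparison, 3423 regions over the start of a single gene were called in the same 5 lists, with or without a call at 120 h. Their median inward move was 163 bases downstream and 92 upstream. The downstream edge moved more at 65.5% of them, and at 19 it moved at least as far as at Sox4. This edge comparison was chosen after the values were seen. The region upstream at -4.6 kb (chr13:28957923-28958672) was 750 bases wide in continuous E2 and 737 after 24 h. The one at 10.8 kb (chr13:28942478-28943410) had 933 bases in continuous E2 and was called nowhere else. The upstream region lies inside the noncoding gene Gm46405, and the one at 10.8 kb is 1767 bases from Gm46405 and 5509 from Sox4. Among genes of all types both were assigned to Gm46405.

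Mecom, whose zinc finger product EVI1 maintains stem cells, had 1 region (chr3:30105225-30105736), of 512 bases, in continuous E2 alone. It lay inside the gene, 404 kb after the gene's start and 92021 bases from the nearer of the 2 listed starts. Neither listed start of Mecom, nor either of Adgrg1, was covered by a called region in any list.

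Across the 19 regions, 16 were called in continuous E2, 13 after 24 h, 6 after 40 h, 4 after 56 h, 3 after 72 h and 1 at 120 h. The share of all 16028 regions called in those lists was 82.1%, 71.4%, 61.9%, 55.9%, 59.5% and 49.7%. The members' 84.2% and 68.4% in continuous E2 and after 24 h lay close to this background, and their 31.6%, 21.1%, 15.8% and 5.26% in the later lists lay below it. The step between 24 and 40 h was the largest for the members, from 13 regions to 6. Counted by gene, 8, 7, 4, 3, 3 and 1 of the 8 had a called region, against 88.8%, 82.9%, 77.4%, 73.1%, 76.4% and 64.6% of the 10499 genes with an assigned region. After 40 h these were Cd34, Adgrg1, Hmga2 and Sox4, and after 72 h Cd34, Msi2 and Sox4. No test of these differences was made, because regions of a gene are not independent and no list had a replicate.

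**Figure D3:**
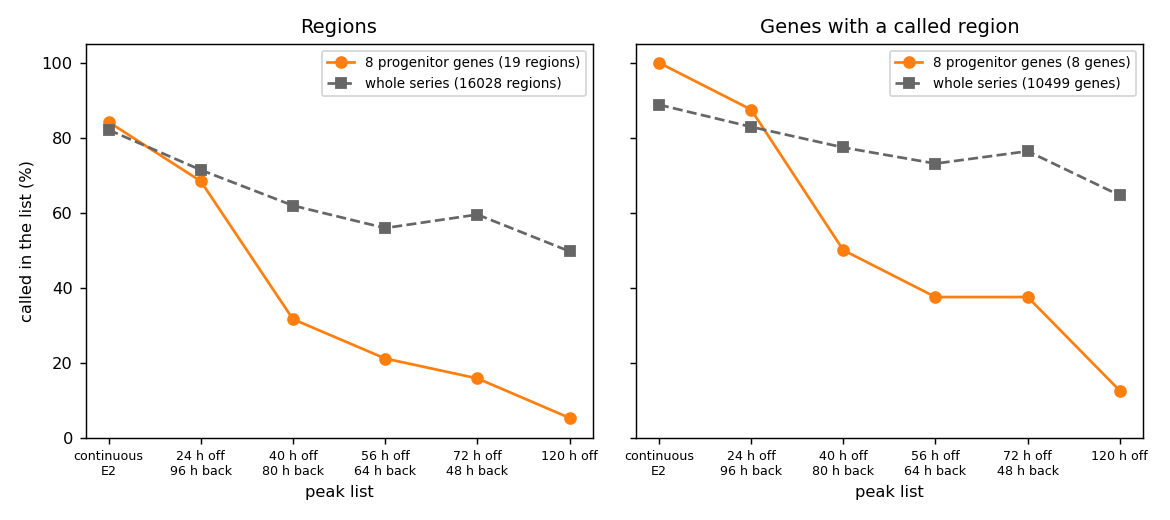
Left, the percentage of regions called in each of the 6 peak lists, for the 19 regions of the 8 genes (circles) and all 16028 regions (squares). Right, the percentage of genes with at least 1 called region, for the 8 genes and all 10499 genes with a region. Both pairs of lines are close in continuous E2 and after 24 h, and the members end at 5.26% and 12.5% at 120 h, against 49.7% and 64.6%.

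By class, 15 of the 19 regions were lost (41.6% of all regions), 1 was kept, that is called at both end points (40.6%), 0 were gained, that is called at 120 h and not in continuous E2 (9.15%), and 3 were called at neither (8.71%). All 8 genes had a lost region, as did 43.5% of the genes with a region. Of the 16 called in continuous E2, the 15 lost ones stand beside 50.6% of all such regions. The share differed with place over the whole series, where 30.6% of continuous-E2 regions within 1000 bases of a listed start were lost against 70.1% of those farther away. All 6 member regions within that distance were lost, as were 9 of the 10 farther away. The 6 lay at the starts of Cd34, Egfl7, Msi2 (with C030037D09Rik), Hmga2, Sox4 and the noncoding Gm16897. When every list was cut to its 7987 widest peaks, 8 member regions remained in the continuous-E2 list and all 8 were lost, against 38.5% of all such regions.

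Member peaks were not wide to begin with. In continuous E2 they ran from 348 to 1566 bases with a median of 765, against a median of 839 over all regions called there. The 15 lost ones had a median of 780 bases there, against 720 for all lost and 935 for all kept regions. Bases covered by member peaks were 12780 in continuous E2, 8317, 3743, 1924 and 1664 after 24, 40, 56 and 72 h, and 238 at 120 h. Peaks of all regions covered 11505948, 9203011, 7197398, 5638092, 5878877 and 4827232 bases in the same order of lists. Read depth and sensitivity of the calling were not known, and their part in missing peaks was not tested.

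Wherever a member region was called in successive lists through 72 h, its peak was narrower in the later one. This held for 10 of 10 regions from continuous E2 to 24 h, 6 of 6 to 40 h, 4 of 4 to 56 h and 2 of 2 to 72 h. Narrowing was common everywhere, at 78.3%, 82.4%, 84.2% and 49.7% of all regions called in both lists of a step, so the members' counts lie near the background in the first 3 steps. The extent varied among the members. After 24 h the third Sox4 region kept 0.983 of its width in continuous E2 and that of Msi2 0.964, while the region inside Adgrg1 kept 0.638. By 72 h the Sox4 start region had 0.327 and the upstream Cd34 region 0.497 of their first width. Over the 1057 regions with the same calls as these 2, median widths were 859 bases in continuous E2 and 540 after 72 h.

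**Figure D4:**
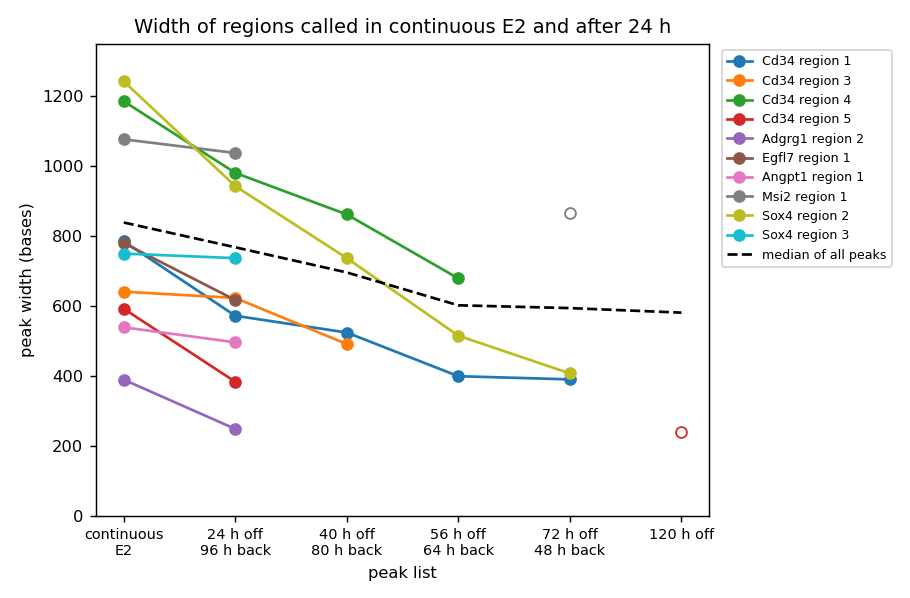
Peak width in bases of the 10 member regions called in both continuous E2 and the list of 24 h without and 96 h with E2. Filled points joined by lines follow an unbroken run of calls, open points are peaks called past a gap in the order of lists, and the dashed line is the median of all peaks of a list. Each joined line runs downward, and the 2 that reach 72 h end at 390 and 407 bases, below the median of 594.

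Relatives of the 8 genes held 8 regions. Of 19 family genes, 5 had a region, giving 5 lost, 0 gained, 1 kept and 2 called at neither end point. The 5 lost were among 6 called in continuous E2, against 50.6% lost over all such regions. Over the series, 9.15% of regions were gained, 40.6% kept and 8.71% called at neither end point. Angpt2, which can oppose Angpt1 at Tie2, and Angptl2 had 2 lost regions each, and Adgrg3, a neighbour of Adgrg1, had 1. Hmga1, the closest relative of Hmga2, had a single region that was called in all 6 lists. No region of Hmga2 was called in the lists of 56, 72 and 120 h. Tek, which encodes Tie2, and Msi1, Sox11, Sox12 and Prdm16 had no region.

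Among 37 other genes used as stem and progenitor markers, 13 had a region. Of these 13, 8 had a lost one, against 43.5% of all genes with a region. Their 20 regions were 10 lost, 1 gained, 4 kept and 5 called at neither end point, against 41.6%, 9.15%, 40.6% and 8.71% of all regions. Thus 10 of the 14 called in continuous E2 were lost, against 50.6% of all such regions. At 120 h 5 of the 20 were called, against 49.7% of all regions. Arhgap22 had 3 lost and 1 kept region, Itga6, an integrin subunit, 1 of each, and Mllt3 1 lost and 1 gained. Kit, the SCF receptor, had 1 lost region, called in every list but that of 120 h. Socs2, a brake on cytokine signals, and Bmi1, a Polycomb protein, had 1 lost region each, as had Cd244a and Fgd5. The remaining genes with a region had none lost. Igf2bp3 and Hlf each had 1 kept region and 1 called at neither end point. Dnmt3b, Cd93 and Itga2b had 1 region each, called in add-back lists only. Whether the 8 genes differ from these other markers was not tested.

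The limit of 50000 bases kept Hmga2's region at 37011 bases and Cd34's at 33863, the farthest inside it. Just outside lay 2 regions upstream of Cd34, 52742 and 58473 bases from the gene and with no protein-coding gene within the limit. Both were lost, the nearer called in continuous E2 and after 24 h, and the farther also after 40 and 72 h.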

How the data were processed

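Peak positions of 12 ATAC-seq libraries were used, as 1 list for each group of 2, assigned per the labels. The deposited lists hold chromosome, start and end, and how the libraries were combined is not given in the sources used here. The submitters' processing notes name BWA, MACS2 2.0, STAR 2.5 and build mm9, with no roles. Coordinates were read as GRCm38, since a RefSeq start on it stood no more than 1000 bases from 49.3% to 65.1% of the peaks in a list, against 4.17% to 4.39% after a shift of 1000000 bases.

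Duplicate rows and intervals over 10000 bases, which lay on chromosomes 18 and 19 only, were dropped and overlapping rows merged. Regions are the union of the 6 lists by overlap of 1 base, and 14813 had a protein-coding gene within 50000 bases. Where several genes overlapped, the one with the nearest end was taken. Strand and listed starts came from the RefSeq promoter table, which matched 7 of the 8 genes and not Angpt1. Distances from a gene's start run from the upstream end of the gene in the RefSeq gene table, which at Adgrg1 and Msi2 is not a listed start. No test was run. Members and gene lists were chosen with earlier results of these data known, and of each list up to 6 genes with most lost, gained, then kept regions were named. Further genes were named in some lists. Merging, classes and assignment were tested on simulated data. Python 3.11.15, numpy 2.4.6, scipy 1.17.1 and matplotlib 3.10.9 were used.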

Additional observations from a re-analysis of the deposited data

How the results depend on the processing

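No paired analysis was possible because the libraries of a group share a single list, so the effect of leaving out a library could not be computed either. Counts were recomputed under 9 planned settings and 2 chosen after seeing the data. Of 74 values, 53 moved by no more than 1.5 times (for the lost share, stayed within its 95% Wilson interval of 49.8% to 51.5%). Lists of equal length by width left 11 member regions, 8 called in continuous E2, 8 lost, 1 gained and 0 kept, and a lost share of 38.5% over all regions. Without regions at gene starts, chosen after seeing the data, 10 were called in continuous E2 and 9 lost, with a lost share of 70.1%. The kept Cd34 region was no longer kept under 50% reciprocal overlap (0 kept, 1 gained, lost share 58.6%), nor without peaks under 300 bases (0 kept, 0 called at 120 h, lost share 51.8%). It left the members, with 0 kept and 0 called at 120 h, under assignment within 20000 bases, to all gene types or by the nearest gene start. Under these 11 settings, between 8 and 17 member regions were lost. Unknown depth limits every absent call.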
